A study of Mus musculus with 4 samples.

Results

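The 10 genes studied here, genes of immature thymocytes and of the earliest (stage 0) precursors of invariant natural killer T (iNKT) cells, were followed in sorted thymic iNKT cells with and without Mettl3. They are Tcf7, Lef1, Sox4, Tox, Satb1, Bcl11b, Hivep3, Myb, Bach2 and Itm2a, listed by name, and all 10 were found among the 53715 gene IDs of the count table and passed the filter that kept 14185 genes for testing. iNKT cells are T cells whose semi-invariant receptor binds lipids on CD1d. The Mettl3 knockout group was 2 libraries from mice of genotype Mettl3fl/flCD4-cre, in which Cre driven by Cd4 removes the floxed gene in T lineage cells from the CD4+CD8+ thymocyte stage on, and the wild-type (WT) group was 2 libraries whose labels name neither Cre nor a floxed allele. All mice were C57BL/6 and 6 to 8 weeks old. Live thymocytes positive for a CD1d tetramer and TCRβ were sorted, so each library pools every developmental stage and subset of thymic iNKT cells, and sequenced by Smart-seq2. METTL3 is the enzyme of the complex that places m6A on mRNA.

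These genes belong to the programme that makes a progenitor into a T cell and keeps a thymocyte immature. TCF-1 and LEF-1 (from Tcf7 and Lef1), SOX4 and TOX are high mobility group box proteins, which bend DNA. SATB1 folds chromatin, BCL11B and HIVEP3 are zinc finger proteins, MYB and BACH2 are transcription factors of progenitors and of cells not yet committed to effector function, and ITM2A, alone among the 10, is a membrane protein and not a nuclear regulator. In iNKT development this programme is high in stage 0 cells, which go on to become the interferon-γ-producing NKT1, the interleukin-4-producing NKT2 or the interleukin-17-producing NKT17 subset.

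Library totals were 24374587 and 25402792 counts in the knockout, against 25931610 and 28316016 in WT. Levels are counts scaled to library size (CPM) after TMM scaling, which sets the libraries on a common scale. Tests are edgeR's quasi-likelihood test with p-values adjusted by Benjamini-Hochberg over all 14185 genes, and a gene passed at an adjusted p under 0.05. Nothing in the labels ties a library to an animal of its own, so the p-values here reflect library-to-library spread that could be technical. Mettl3 itself was at 78.1 and 91.4 CPM in the knockout libraries, against 92.2 and 123.6 CPM in WT (log2 fold change -0.35, edgeR adjusted p = 0.357). The labels do not name the deleted exons and the count covers the whole gene, so this value does not check the deletion. Genotypes below are as labelled. The T cell genes Cd3e, Cd3g, Cd247, Trac, Trbc2 and Zbtb16 summed to 4200 to 4348 CPM in the knockout and 4650 to 4904 CPM in WT, so the sorted cells carried these transcripts in every library. Of the 6, only Trac passed, at 1612 and 1601 CPM in the knockout, against 2292 and 2510 CPM in WT (edgeR adjusted p = 0.0124). That call ended without knockout replicate 1 (0.114) or knockout replicate 2 (0.121).

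Satb1, Hivep3 and Lef1 rose in the Mettl3 knockout, and none of the 10 genes fell. Of the other 7, Sox4, Tox, Bcl11b and Tcf7 were higher in both knockout libraries than in both WT libraries but did not pass, and Myb, Bach2 and Itm2a overlapped between the genotypes. The 3 calls among 10 genes compare with 1.09% of all tested genes called higher, 1.51% called lower and 2.59% called in either direction. Under the alternatives cited below, the share of all genes called higher was 4.67% with DESeq2, 3.41% with a filter at 5 CPM in 2 libraries, 0.74% with limma voom, 0.896% with a length trend removed and 0.0493% with a replicate block. Leaving out WT replicate 1 gave 0.257% and WT replicate 2 gave 0.159%, and leaving out knockout replicate 1 gave 0.0967% and knockout replicate 2 gave 0.0835%. DESeq2 called 4.73% and limma voom 1.25% lower. At an unadjusted p under 0.05, the cut used beside some lists below, 20.2% of all tested genes passed, 10.5% higher and 9.69% lower. The log2 fold change was positive for 9 of the 10, with a median of 0.63 against 0.02 over all tested genes. The knockout lay above WT with no overlap for 7 of the 10, and 25.4% of all tested genes did so. In bulk RNA, a larger share of immature cells and more of a transcript per cell cannot be told apart.

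**Figure D1:**
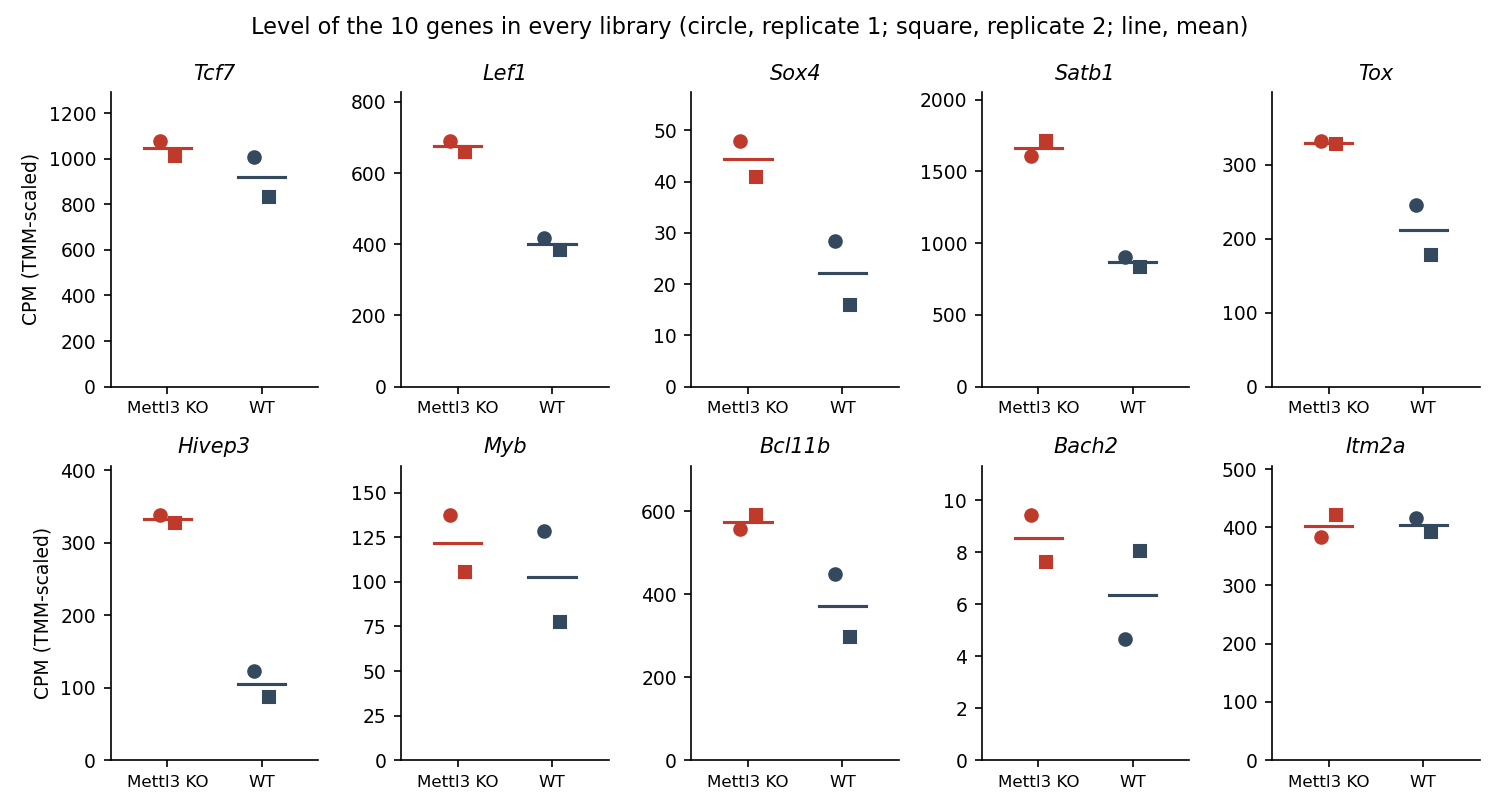
Level of each of the 10 genes in CPM in every library, with the Mettl3 knockout left of WT; circles are replicate 1, squares replicate 2 and lines the mean of 2. The knockout points of Satb1, Hivep3 and Lef1 stand clear of WT, while those of Itm2a, Myb and Bach2 overlap with WT.

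Satb1 encodes the chromatin organiser that loops thymocyte genes and is needed to switch on lineage genes after positive selection. The gene (ENSMUSG00000023927.15) is on the minus strand of chr17:51736187-51833290 (GRCm38). It had 1608 and 1710 CPM in the knockout libraries, against 902.4 and 830.9 CPM in WT. Both knockout libraries were far above both WT libraries, and the gap was many times the spread within either genotype. Satb1 thus rose 1.91-fold, or 0.94 on the log2 scale, with an SE of 0.08 and a 95% interval of 0.74 to 1.13 (edgeR adjusted p = 0.00395). Satb1 passed whichever library was left out, with values of 0.88 to 0.99 and adjusted p of 0.0117 to 0.0488.

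Hivep3 encodes a large zinc finger protein also known as Schnurri-3, which in mouse thymus has been tied to the expansion of stage 0 iNKT precursors. The gene (ENSMUSG00000028634.17) is on the plus strand of chr4:119733784-120138045. It had 338.9 and 327.8 CPM in the knockout, against 122.8 and 87.4 CPM in WT. The knockout pair was tight and the WT pair was spread 1.41-fold, with WT replicate 1 the higher. Its rise of 3.16-fold was the largest of the 10, at 1.66 on the log2 scale with an SE of 0.17 and a 95% interval of 1.27 to 2.05 (edgeR adjusted p = 0.00558). Without knockout replicate 1 it did not pass (value 1.64, edgeR adjusted p = 0.0508).

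Lef1 (ENSMUSG00000027985.14, plus strand of chr3:131110471-131224356) had 690.1 and 660.2 CPM in the knockout, against 416.7 and 384.7 CPM in WT. LEF-1 and TCF-1 share a DNA-binding domain and bind the same sequence, and both act from the earliest thymocyte to the CD4 and CD8 lineage choice. Lef1 rose 1.68-fold, or 0.75 on the log2 scale, with an SE of 0.09 and a 95% interval of 0.53 to 0.97 (edgeR adjusted p = 0.0112). Its direction held in every fit on 3 libraries, but it did not pass without knockout replicate 1 (0.72, edgeR adjusted p = 0.114), knockout replicate 2 (0.78, 0.0976) or WT replicate 2 (0.69, 0.0522).

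Sequences before annotated starts of these 3 genes are shown because the 3 genes rose and because the TCF/LEF and MYB factors among the 10 bind known DNA letters. Each is the run of 250 bases before a RefSeq transcription start (GRCm38.p6), 5′ to 3′ on the gene's strand. Capitals mark CTTTGA, the TCF/LEF core, or TAACNG, a MYB site, each on either strand. The first 3 belong to the RefSeq start listed farthest upstream in each gene, and the last to a start inside Lef1. The Hivep3 start also lies inside the gene as GENCODE bounds it. The internal Lef1 run is the only run before a start of the 3 genes that held the TCF/LEF core. Other starts of Lef1 and Satb1 are not printed, among them the Lef1 run at chr3:131112541-131112790, which held neither set of letters.
Satb1, chr17:51833291-51833540, minus strand: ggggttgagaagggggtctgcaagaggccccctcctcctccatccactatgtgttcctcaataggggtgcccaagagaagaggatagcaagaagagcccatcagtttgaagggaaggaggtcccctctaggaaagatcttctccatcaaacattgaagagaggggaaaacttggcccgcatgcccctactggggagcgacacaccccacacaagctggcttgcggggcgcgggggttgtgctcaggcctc
Hivep3, chr4:119814428-119814677, plus strand: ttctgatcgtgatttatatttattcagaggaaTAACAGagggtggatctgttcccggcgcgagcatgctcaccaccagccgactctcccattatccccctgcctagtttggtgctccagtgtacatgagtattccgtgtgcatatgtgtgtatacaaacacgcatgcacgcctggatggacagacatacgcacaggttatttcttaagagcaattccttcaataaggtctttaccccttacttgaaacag
Lef1, chr3:131110047-131110296, plus strand: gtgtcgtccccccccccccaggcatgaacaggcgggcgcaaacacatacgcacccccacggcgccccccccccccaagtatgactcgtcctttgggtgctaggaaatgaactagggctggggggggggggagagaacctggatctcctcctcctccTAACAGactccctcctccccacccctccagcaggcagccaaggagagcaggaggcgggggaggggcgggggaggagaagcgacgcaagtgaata
Lef1 internal start, chr3:131156044-131156293, plus strand: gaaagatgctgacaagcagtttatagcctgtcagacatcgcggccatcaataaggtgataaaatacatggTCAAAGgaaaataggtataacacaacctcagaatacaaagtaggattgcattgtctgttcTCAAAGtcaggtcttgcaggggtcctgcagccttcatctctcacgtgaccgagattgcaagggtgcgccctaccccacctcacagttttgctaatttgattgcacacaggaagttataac
The Satb1 run held neither set of letters, although the windows of 2 starts further inside Satb1 held TAACNG, the Hivep3 run and the upstream Lef1 run held TAACAG once each, and the internal Lef1 run held the TCF/LEF core 2 times. Over the 300-base windows (250 bases before a start to 50 after), 9 of the 10 genes matched a RefSeq window, 17 windows in all. The TCF/LEF core was in 3 of those 17 windows, of Lef1, Bcl11b and Bach2, and in 16.0% of all 32851 mouse windows. TAACNG was in 6 of the 17, of Lef1, Satb1 and Hivep3, and in 23.3% of all windows. Windows of a gene overlap, and the 6 held 5 distinct sites, 2 in Lef1, 2 in Satb1 and 1 in Hivep3. The SOX letters AACAAT, again on either strand, were in 0 of the 17 and in 10.7% of all. Each set of letters was searched on its own, and overlaps between sets were not removed. A match is a stretch of letters, and no binding was measured here.

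Among the other high mobility group genes, Tcf7 had 1077 and 1013 CPM in the knockout, against 1007 and 833.3 CPM in WT. The lower knockout library was just above the higher WT library, and the difference of 0.18 on the log2 scale did not pass (SE 0.11 and 95% interval -0.07 to 0.43, with an edgeR adjusted p of 0.392). The interval leaves room for a rise of up to 0.43 on the log2 scale. The ratio of Lef1 to Tcf7, each per kb of exon, was 0.191 and 0.195 in the knockout libraries and 0.124 and 0.138 in WT. Both knockout ratios were above both WT ratios (exact permutation test on log2 ratios, two-sided, p = 0.333, which is the smallest that 2 against 2 libraries allows). The size of the ratio depends on the length used. Per kb of the longest coding transcript it was 0.455 and 0.462 in the knockout libraries and 0.294 and 0.328 in WT.

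Tox, whose product is needed for the CD4 lineage and for iNKT cells to develop, had 332.3 and 328.2 CPM in the knockout, against 245.8 and 178.1 CPM in WT. The knockout libraries were nearly equal, and WT replicate 1 was 1.38-fold above WT replicate 2. On the log2 scale Tox differed by 0.64, with an SE of 0.16 and a 95% interval of 0.27 to 1.01 (edgeR adjusted p = 0.0849). Tox passed with DESeq2 (adjusted p = 0.00285), with genes at 5 CPM or more in 2 libraries (edgeR adjusted p = 0.0367) and without WT replicate 1 (value 0.88, edgeR adjusted p = 0.0399). Without WT replicate 2 the value was 0.42.

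Sox4, a factor of lymphoid progenitors, was the lowest of the 4 per kb of exon, as given below, with 47.9 and 40.9 CPM in the knockout, against 28.5 and 16.0 CPM in WT. Its log2 fold change of 0.98 (SE 0.29, 95% interval 0.31 to 1.66) was second to that of Hivep3, but the WT libraries differed 1.78-fold and it did not pass (edgeR adjusted p = 0.122). With WT replicate 1 left out the value was 1.47, and with WT replicate 2 left out it was 0.64. DESeq2 called it (adjusted p = 0.0449), and DESeq2 called 4.67% of all tested genes higher.

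**Figure D2:**
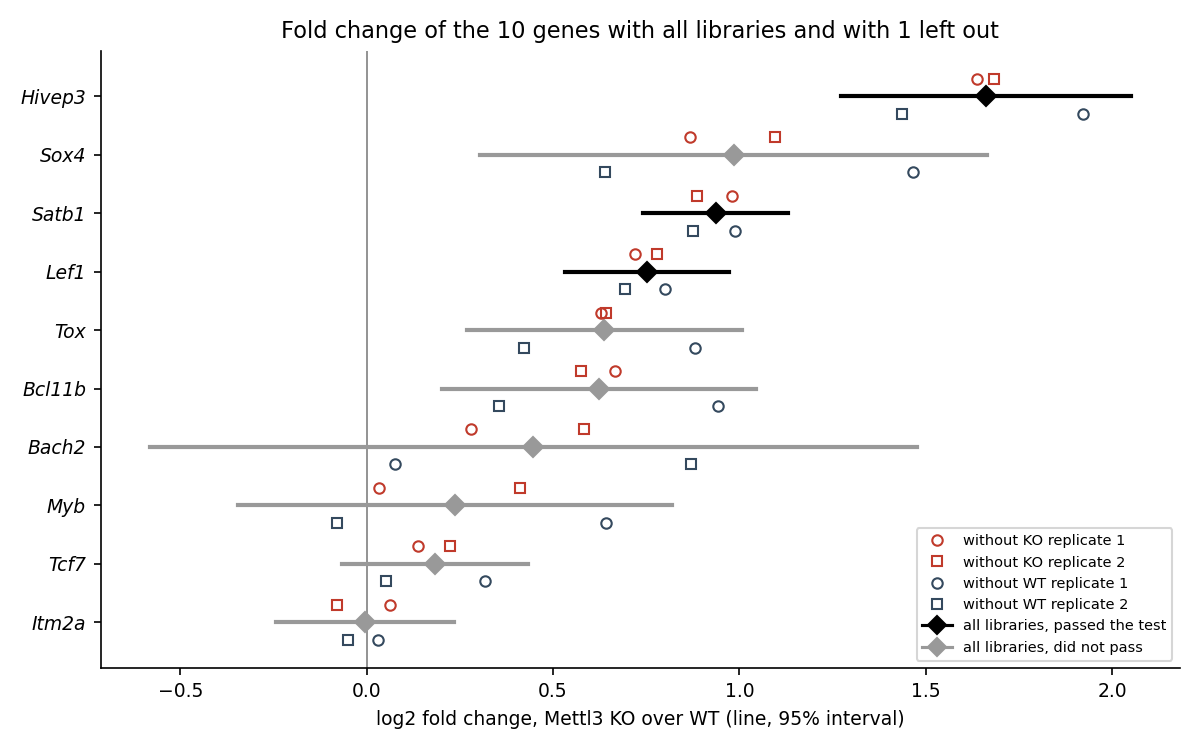
Log2 fold change (Mettl3 knockout over WT) of each gene with its 95% interval (line) from all 4 libraries, and open symbols for the fits without 1 library. The open symbols of Satb1 (0.88 to 0.99) and Lef1 (0.69 to 0.80) stay close to the full value, and those of Sox4 (0.64 to 1.47), Bach2 (0.08 to 0.87) and Myb (-0.08 to 0.64) spread widely.

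Bcl11b, the zinc finger gene that commits progenitors to the T lineage and bars the natural killer fate, had 556.9 and 591.9 CPM in the knockout, against 448.0 and 296.4 CPM in WT. Both knockout libraries were above both WT libraries, which differed 1.51-fold from each other. The difference of 0.62 on the log2 scale, with an SE of 0.18 and a 95% interval of 0.20 to 1.04, did not pass (edgeR adjusted p = 0.118). Leaving out WT replicate 1 gave 0.94, which passed (edgeR adjusted p = 0.0266), and leaving out WT replicate 2 gave 0.35. DESeq2 called Bcl11b on all libraries (adjusted p = 0.00822).

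Myb, the proto-oncogene of haematopoietic progenitors and CD4+CD8+ thymocytes, had 137.8 and 105.8 CPM in the knockout, against 128.5 and 77.5 CPM in WT. The genotypes overlapped, and the spread within each was as large as the difference between them. On the log2 scale Myb differed by 0.24, with a 95% interval of -0.35 to 0.82 (edgeR adjusted p = 0.662). With WT replicate 1 left out this was 0.64, and with WT replicate 2 left out -0.08. Bach2, a repressor that holds lymphocytes short of effector differentiation, was rare, with 243 and 190 counts (9.44 and 7.62 CPM) in the knockout and 131 and 202 counts (4.66 and 8.04 CPM) in WT. The genotypes overlapped, and the 95% interval of its log2 fold change, -0.58 to 1.48 around 0.45, covers a sizeable fall as well as a rise (edgeR adjusted p = 0.634). Leaving out WT replicate 1 gave 0.08, and leaving out WT replicate 2 gave 0.87. BACH2 is also made by B cells, whose markers are given below.

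Itm2a, a membrane protein gene switched on in thymocytes during selection, had 383.0 and 421.7 CPM in the knockout, against 415.1 and 391.3 CPM in WT. The libraries of the genotypes interleaved. Its difference on the log2 scale was -0.0035, with an SE of 0.10 and a 95% interval of -0.24 to 0.24 (edgeR adjusted p = 0.989), and its sign changed with the scaling.

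**Figure D3:**
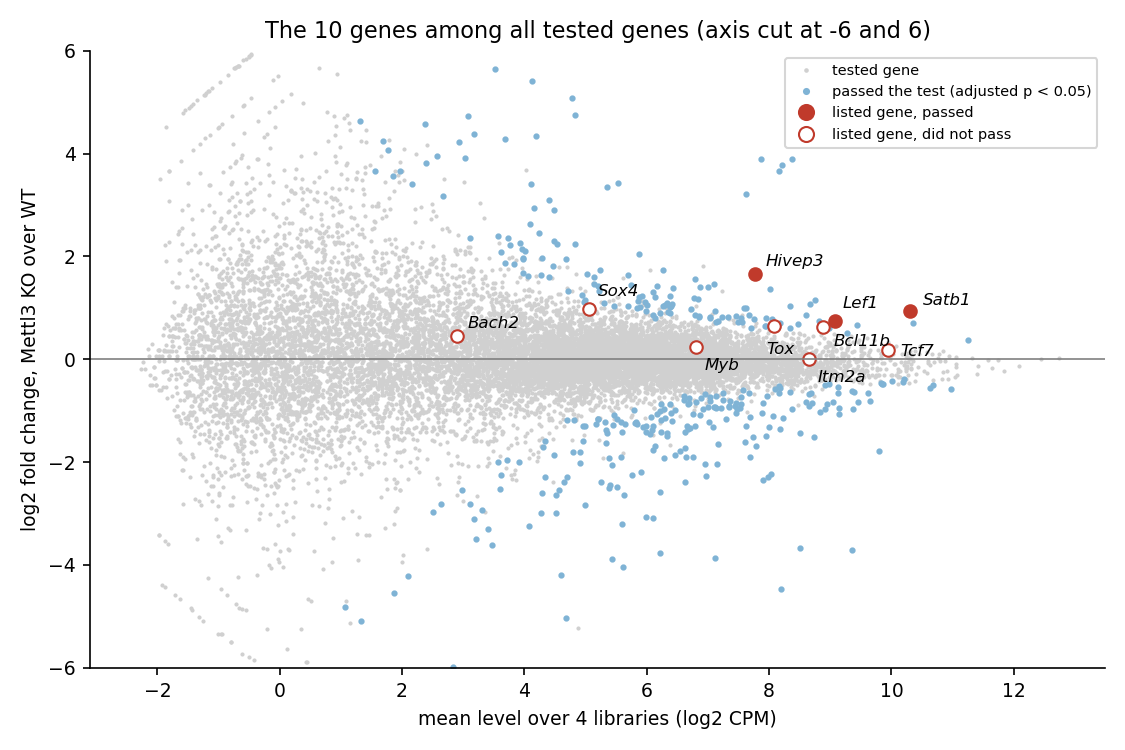
Log2 fold change (Mettl3 knockout over WT) against mean level (log2 CPM) for all tested genes, with the 10 listed genes as large red circles, filled where they passed, and the vertical axis limited to 6 in either direction. Satb1, Lef1 and Hivep3 stand among the abundant genes that passed, and the other 7 did not pass, with Bach2 at the lowest level.

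Per kb of exon, the scale on which genes can be compared with each other, Tcf7 was the most abundant of the 10 in both genotypes, at 398.2 ± 17.2 CPM per kb in the knockout and 350.5 ± 46.7 in WT (SD, n = 2). Itm2a followed at 230.7 ± 15.7 CPM per kb in the knockout and 231.2 ± 9.63 in WT. In the knockout the order went on with Satb1 (87.2), Lef1 (76.8), Bcl11b (70.8), Tox (43.4), Hivep3 (18.9), Myb (13.6), Sox4 (9.26) and Bach2 (0.858), and no neighbouring pair had overlapping libraries. In WT, Bcl11b, Lef1 and Satb1 were not separable at 45.9, 45.6 and 45.5 CPM per kb. Myb (11.5) stood above Hivep3 (5.96) in WT, with no overlap between their libraries, and below it in the knockout. The annotated exons of Satb1 add up to 19027 bases, far more than its longest coding transcript of 6243, so the scale matters for it. Per kb of the longest coding transcript, a choice made after seeing the data, Satb1 came next after Tcf7 in the knockout at 265.8 CPM per kb, and after Tcf7 and Itm2a in WT at 138.8. Myb then stood above Hivep3 in both genotypes.

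The libraries of a genotype did not move alike across the 10 genes. WT replicate 1 was above WT replicate 2 for 9 of them, by 1.06-fold for Itm2a to 1.78-fold for Sox4, with Bach2 the exception at 0.579. Knockout replicate 1 over replicate 2 ranged from 0.908 for Itm2a to 1.30 for Myb. Some of the exons are shared with other annotated genes, and Smart-seq2 libraries do not mark strand. Gm26735, on the opposite strand, covers 54.6% of the Sox4 exon bases and had 0 counts in all 4 libraries, and Gm43352 covers 13.7% of those of Lef1 and had at most 124 counts, against at least 9665 for Lef1. How the authors' counting treated such reads is not given in the sources used here. If reads from shared bases were left out, Gm26735 could have 0 counts for that reason. The Sox4 level per kb, which divides by all its exon bases, would then be too low, so its place in the order is not settled.

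As METTL3 writes m6A mainly within GGACT and similar letters (GGACU in RNA), the longest coding transcript of each gene was searched for GGACT. It occurred 0.287 times per kb in Lef1 (1 match), 0.505 in Tox, 0.801 in Satb1 (5 matches), 0.812 in Myb, 0.986 in Bcl11b, 1.01 in Hivep3 (12 matches), 1.15 in Itm2a, 1.21 in Tcf7, 1.46 in Bach2 and 1.88 in Sox4 (9 matches). The median of the 10 was 1.0 per kb, against 1.05 over 11701 tested genes with a coding transcript, whose middle range was 0.639 to 1.52. Sox4 and Bach2 had the most of these letters per kb and Lef1 the fewest. No m6A was measured here, and a tie between these letters and the fold changes was not tested. In length, 8 of the 10 transcripts exceeded the median of 3079 bases of tested genes. With the trend of counts with gene length removed, Satb1, Hivep3 and Lef1 still passed (edgeR adjusted p = 0.0108, 0.0114 and 0.0263).

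No close relative of the 10 genes passed. Of 16 paralogs, 12 were tested, and 0 passed in either direction by edgeR or limma voom, with 1 higher and 1 lower at an unadjusted p under 0.05 and 1 in each direction by DESeq2. Their median log2 fold change was 0.30. Tox4 was at 291.0 and 281.8 CPM in the knockout, against 271.4 and 286.2 CPM in WT, and Itm2b at 1167 and 1099, against 1229 and 1314. Bcl11a, the B cell and dendritic cell paralog of Bcl11b, had the largest value, 4.26 (edgeR adjusted p = 0.0523), at 4.82 and 8.35 CPM in the knockout and 0.0356 and 0.677 CPM in WT. Leaving out WT replicate 1 gave 3.26, and leaving out WT replicate 2 gave 7.34. WT held 1 and 17 counts of it. Sox11 had 0 counts in every library, Mybl1 had at most 1 count, and Tcf7l2 was at 2.99 and 0.321 CPM in the knockout and 0.320 and 0 CPM in WT. The remaining values were Hivep1 -0.40, Hivep2 0.39, Sox12 0.92, Tcf7l1 1.25, Tox2 -0.41, Tox3 1.64, Mybl2 0.50, Bach1 0.21 and Itm2c -0.43 on the log2 scale.

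Cofactors that TCF-1 and LEF-1 recruit and the Wnt pathway upstream of them were measured next. Of 19 tested genes, 0 passed by edgeR, DESeq2 or limma voom, with 1 higher and 1 lower at an unadjusted p under 0.05 and a median of -0.02. Ctnnb1, which encodes the coactivator β-catenin, was at 146.2 and 133.1 CPM in the knockout, against 175.7 and 178.6 CPM in WT (log2 fold change -0.34, edgeR adjusted p = 0.181). Tle1, a corepressor gene, was at 13.4 and 14.7 CPM in the knockout, against 8.18 and 3.82 CPM in WT (edgeR adjusted p = 0.17). Bcl9l, a β-catenin cofactor gene, and Gsk3b, a kinase gene of the β-catenin destruction complex, had values of 0.47 and -0.29.

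Among 23 other tested regulators of T lineage specification, 0 rose and 1 fell, with a median of 0.07. The gene that fell was Hhex, a homeobox gene of progenitors, at 128.6 and 101.3 CPM in the knockout, against 265.4 and 211.6 CPM in WT (log2 fold change -1.05, SE 0.17; edgeR adjusted p = 0.0284). In each fit on 3 libraries it failed the threshold (edgeR adjusted p of 0.0622 to 0.162). DESeq2 called 3 higher and 2 lower, and 6 were higher and 3 lower at an unadjusted p under 0.05. Spi1, the myeloid and progenitor factor PU.1, had a value of 1.83 (edgeR adjusted p = 0.0756), Ikzf3 -0.45 and Runx1 0.43.

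Lineage genes that SATB1 regulates in mouse thymocytes were also measured. None of the 7 tested passed by edgeR or limma voom (0 of 7), while 5 were higher and 1 lower both by DESeq2 and at an unadjusted p under 0.05, with a median of 0.60. Rag1, a recombinase gene of CD4+CD8+ thymocytes, was at 114.0 and 90.3 CPM in the knockout, against 49.2 and 59.9 CPM in WT (edgeR adjusted p = 0.0556). Cd4, Cd8a, Cd8b1, Rag2 and Zbtb7b, which encodes the CD4 lineage factor ThPOK, had values of 0.49, 0.89, 0.60, 0.51 and 0.75. Runx3, the CD8 lineage factor gene, was the one lower, at 174.1 and 129.8 CPM in the knockout, against 238.5 and 295.8 CPM in WT (edgeR adjusted p = 0.0607). Foxp3 had 0 counts in every library. Rag1, Rag2, Cd4, Cd8a and Cd8b1 are also on the list of CD4+CD8+ thymocyte markers given below, so their values are shared with that list. Cd4 and Cd8a are on the single-positive list too.

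BCL11B holds down natural killer and innate genes in developing T cells. Of 8 tested genes of this kind 3 fell and 0 rose, with a median of -0.998. Klrd1, which encodes CD94, was at 74.2 and 83.6 CPM in the knockout, against 348.3 and 454.3 CPM in WT (edgeR adjusted p = 0.00214). Klrb1c, which encodes NK1.1, fell by 1.43 (log2; edgeR adjusted p = 0.00253) and Fcer1g, a signalling chain gene, fell by 1.71 (0.0311). Klrd1 and Klrb1c passed whichever library was left out, and Fcer1g passed in none of those fits (0.0763 to 0.173). Zbtb16, which encodes PLZF, had a value of 0.65 (edgeR adjusted p = 0.0658). DESeq2 called 1 higher, Zbtb16 (adjusted p = 0.000931), and 3 lower. At an unadjusted p under 0.05, 1 was higher and 4 lower. Klrd1 and Klrb1c are also NKT1 markers, so their fall is shared with that subset's list.

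Regulators of effector maturation that BACH2 or TCF-1 oppose were the next list. Of 11 tested genes 2 fell and 0 rose, with a median of -0.25, which was the same with Eomes, not counted in WT, at its bound. The list was mixed, with 3 higher and 4 lower at an unadjusted p under 0.05. DESeq2 called 1 higher and 4 lower, and limma voom 0 higher and 1 lower. Tbx21, the NKT1 factor T-bet, was at 337.8 and 314.6 CPM in the knockout, against 552.5 and 731.7 CPM in WT (log2 fold change -0.98, edgeR adjusted p = 0.0202). Bhlhe40 was at 15.9 and 23.6 CPM in the knockout, against 49.6 and 72.4 CPM in WT (-1.62, edgeR adjusted p = 0.0387). Tbx21 passed only without WT replicate 1 (0.0132; otherwise 0.0532 to 0.147), and Bhlhe40 passed in no fit on 3 libraries (0.0572 to 0.195). Prdm1, the effector regulator that BACH2 represses, was at 6.96 and 6.66 CPM in the knockout, against 16.5 and 19.3 CPM in WT (edgeR adjusted p = 0.0793). Rora went the other way, with a value of 1.27 (edgeR adjusted p = 0.0629). Of the 12 partners and targets linked to SOX4, MYB or HIVEP3, Slamf6, a receptor that iNKT precursors need, rose by 0.80 (log2; edgeR adjusted p = 0.0358). Leaving out WT replicate 2 (0.0817) or either knockout library (0.143 and 0.197) ended that call, as did removing the length trend (0.0597). The other 11 did not pass, with Cebpb at -1.04 and Bcl2l1 at 0.29, and the median was 0.19.

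**Figure D4:**
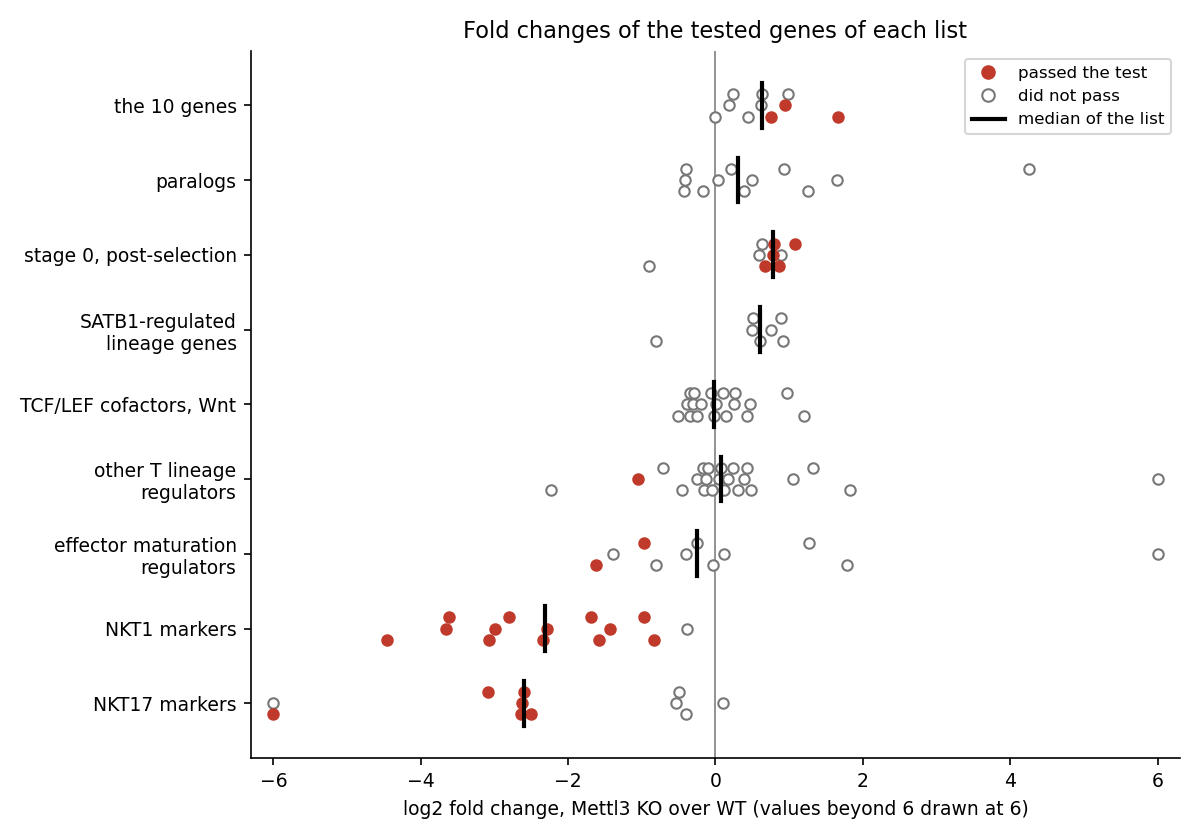
Log2 fold change (Mettl3 knockout over WT) of each tested gene of the 10 and of 8 related lists; filled points passed the test and bars are list medians, and values beyond 6 in either direction are drawn at 6. The 10 genes (median 0.63) and the stage 0 list (0.78) lie mostly right of 0, cofactors and other T lineage regulators around 0, and NKT1 and NKT17 markers left of 0.

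Markers of stage 0 and of recently selected cells include several receptor-induced genes. Of 9 tested, 5 rose and 0 fell, with a median of 0.78. DESeq2 called 6 higher and 1 lower, and 7 were higher and 1 lower, Cd69, at an unadjusted p under 0.05. Cd24a was at 29.0 and 18.4 CPM in the knockout, against 19.4 and 11.9 CPM in WT. Its genotypes overlapped and it did not pass (edgeR adjusted p = 0.411). Id3, an inhibitor of E proteins, was at 596.0 and 511.0 CPM in the knockout, against 286.2 and 239.5 CPM in WT (edgeR adjusted p = 0.00965), and the receptor-induced factor Egr1 at 540.5 and 467.8, against 275.3 and 278.2 (0.0119). The chemokine receptor Ccr9 and the receptor modulator Cd5 had values of 0.78 and 0.67 (edgeR adjusted p = 0.0178 and 0.0275), and Slamf6 was the fifth. Cd69, an activation marker of selected thymocytes, had a value of -0.91 (edgeR adjusted p = 0.0512). The count of 5 rested on all 4 libraries: leaving out WT replicate 1 gave 2, WT replicate 2 gave 1, and either knockout library 0.

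Transcripts of other stages and cell types moved with the genotype, and their part in the levels of the 10 genes was not tested. Markers of CD4+CD8+ thymocytes, which also make Satb1, Tcf7, Lef1, Sox4 and Myb, summed to 1312 to 1440 CPM in the knockout and 879 to 1030 CPM in WT, with 0 of 11 called by edgeR or limma voom, 5 higher by DESeq2 and 5 higher and 1 lower at an unadjusted p under 0.05. Ptcra, of the stage before, was at 3.07 and 3.21 CPM in the knockout and 2.63 and 3.18 CPM in WT. Markers of single-positive T cells summed to 2637 to 2705 CPM in the knockout and 2279 to 2382 CPM in WT (2 of 8 rose, Ccr7 and S1pr1, and with any 1 library left out only Ccr7 did). Il7r, of the single-positive list, was at 967.4 and 1034 CPM in the knockout, against 1268 and 1267 CPM in WT. Its value of -0.34 was the only negative value of the 8 (edgeR adjusted p = 0.0692), and DESeq2 called 4 higher and 1 lower. NKT2 markers summed to 1677 to 1820 CPM in the knockout and 1297 to 1682 CPM in WT. Values were positive for 5 of the 7 and negative for 2, with Il4 at 0.93, Izumo1r at -0.06 and Plac8 at -0.64. DESeq2 called 3 higher and 1 lower. By edgeR, 2 of 7 rose (Il6ra and Ccr4). Leaving out either WT library gave 1 of 7, Il6ra, and either knockout library 0. NKT1 markers summed to 2620 to 2668 CPM in the knockout and 5241 to 7022 CPM in WT, with 13 of 14 lower, all but Il2rb (Tbx21, Ifng, Ly6c2, Klrd1, Klrc1, Klrb1c, Nkg7, Xcl1, Cxcr3, Gzma, Gzmb, Ccl5 and Klrk1). That count was 8 with limma voom and 5 with the replicate block, and leaving out WT replicate 1 gave 12, WT replicate 2 gave 7 and either knockout library 6. NKT17 markers summed to 188.4 to 191.6 CPM in the knockout and 483.6 to 613.7 CPM in WT, with 6 of 11 lower (Il23r, Il1r1, Sdc1, Blk, Serpinb1a and Ccr6). Leaving out either WT library gave 4, knockout replicate 1 gave 3 and knockout replicate 2 gave 2. MHC class II pathway genes, shared by B and myeloid cells, summed to 2088 to 2215 CPM in the knockout, against 92.3 to 221.3 CPM in WT (4 of 5 rose, H2-Aa, H2-Ab1, H2-Eb1 and Cd74, and without either knockout library only H2-Ab1 did). Myeloid markers summed to 512.9 to 573.4 CPM in the knockout and 148.2 to 170.5 CPM in WT, with 4 of 11 higher (Lyz2, Csf1r, Cd209a and Mgl2) and 1 lower (Fcer1g). At an unadjusted p under 0.05, 6 were higher and 1 lower. Itgam was at 0.272 and 0.160 CPM in the knockout, against 0 and 0 CPM in WT. Adgre1 was at 2.18 and 0.441 CPM in the knockout, against 0.0356 and 0 CPM in WT. Lyz2 alone was at 324.6 and 385.6 CPM in the knockout, against 29.6 and 47.5 CPM in WT. The log2 fold change was positive for 7 of the 11 and negative for 4, with Cst3 at -0.65, C1qa at -0.14 and C1qb at -0.09. DESeq2 and limma voom each called 2 myeloid genes higher, Lyz2 and Mgl2. Fewer of the 4 genes passed with a library left out, and which ones did changed with the library. In those fits the log2 fold change was 2.9 to 3.6 for Lyz2 and 3.5 to 5.8 for Mgl2. It was 4.7 to 12.2 for Csf1r and 4.3 to 12.8 for Cd209a. B cell markers summed to 29.0 to 37.7 CPM in the knockout and 11.2 to 18.8 CPM in WT, with 0 of 7 called by edgeR, DESeq2 or limma voom, 1 higher at an unadjusted p under 0.05, and Pax5 at 0 in all 4. Stromal markers summed to 8.99 to 11.1 CPM in the knockout and 10.8 to 15.9 CPM in WT, and erythroid markers to 3.69 to 3.73 CPM in the knockout and 0.876 to 1.42 CPM in WT, with 0 called in either list by edgeR. At an unadjusted p under 0.05, 2 stromal genes were higher and 1 lower and 1 erythroid gene was higher, and DESeq2 called 1 stromal gene higher.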

How the data were processed

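RNA was counted in 4 libraries, 2 per genotype, grouped and numbered by the sample titles. The authors deposited 1 table of unnormalised read counts, with a column per library. The submitters' processing notes name STAR 2.6.0a, HTSeq 0.6.1, FastQC 0.11.5 and DESeq2 1.18.1, with build mm10. Their settings, the annotation release and the strand setting are not stated in any source used here. Of 53715 gene IDs, 53620 matched GENCODE M21 (GRCm38) without the version suffix and 51464 with it; the IDs of all 10 genes matched with it. Where a symbol stood on several IDs, the ID with the most counts was used.

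In R 4.3.3, genes were kept by filterByExpr, scaled by TMM and tested two-sided by the robust quasi-likelihood F test of edgeR 4.0.16 (glmQLFTest, without the legacy option), knockout over WT, with 2 residual degrees of freedom. SE is the log2 fold change over the square root of F. DESeq2 1.42.0, limma 3.58.1 voom, other scalings and filters, a length correction, a replicate block and each library left out were alternatives; with 1 library left in a genotype it is assumed to vary like the other. The fits were tested on simulated counts. Exon length is the union of annotated exons. Intervals cover counting and library error only. A gene with no count in a genotype was bounded at 3 counts per library in list medians.

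The 10 genes and all lists were chosen with earlier results of these data known, so they are no independent evidence. Named genes are the 10, Mettl3, the paralogs (1 is not reported here), all members of lists of 8 or fewer, the called genes and up to 4 of lowest p in longer lists; markers of other cell types are named where called or at 0. Cd24a, Cd69, Eomes, Prdm1, Ptcra, Il7r, Il4, Plac8, Izumo1r, Cst3, C1qa, C1qb, Itgam, Adgre1 and the uncalled T cell genes, which fall outside this rule, and the SOX and MYB letters, were added after values were seen. The ratio of Lef1 to Tcf7 and its permutation test were not among the planned results. Libraries of a genotype differed beyond counting noise (chi-square per degree of freedom 28.0 in the knockout and 45.6 in WT) and were used as separate replicates.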

Additional observations from a re-analysis of the deposited data

How the results depend on the processing

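Satb1, Hivep3 and Lef1 kept their direction in all 12 alternatives and passed in all but the replicate block and, for Hivep3 and Lef1, the fits without a library named above. The number of the 10 genes called was 3; it was 6 with DESeq2, 0 with the replicate block, and 1 to 5 with a library left out (1 without knockout replicate 1, 2 without knockout replicate 2 or WT replicate 2, 5 without WT replicate 1). All tested genes called numbered 368 (154 higher, 214 lower): 727 (335 and 392) under the 5 CPM filter, 1333 (662 and 671) with DESeq2, 33 (7 and 26) with the block, 93 higher with no filter, and 325 lower with the length trend removed, which called 127 higher (28.1% of calls, against 41.8%). Total-count scaling turned the balance, with 207 higher and 197 lower (51.2% higher). With a library left out, 41 to 172 were called, 13 to 40 higher and 26 to 132 lower. Called genes on the related lists, 7 in all, were 15 at 5 CPM, 22 with DESeq2, 2 with the block and 2 to 6 with a library left out.

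The replicate numbers are not said to pair libraries. The correlation of same-numbered deviations was -0.01, and the block leaves 1 residual degree of freedom, so its adjusted p of 0.0573 for Satb1, 0.051 for Hivep3 and 0.0753 for Lef1 are not read as weaker effects. Values of 4 named genes that did not pass changed sign. Itm2a was 0.0020 with RLE scaling, 0.050 with total counts, 0.0029 at 5 CPM, 0.0023 with DESeq2 and -0.079 to 0.064 with a library left out. Myb was -0.080 to 0.64, Tox2 -1.40 to 0.16 and Tox4 -0.0091 to 0.074 with a library left out, and Tox4 was -0.052 with the length trend removed. The cause was not tested. Depth limits Bach2, at 131 to 243 counts, and the paralogs near 0, and 2 libraries per genotype limit every test.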
